A study of Rattus norvegicus with 9 samples.

Results

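Lungs given ischemic postconditioning (I-post C) were compared here with lungs given ischemia-reperfusion alone (IR), across every gene with a mean FPKM of at least 0.5 over the 9 libraries of the series. FPKM is a transcript level scaled for gene length and library size. The rule kept 15402 of the 22833 genes in the deposited table and set the 3 I-post C libraries against the 3 IR libraries, 6 of the 9 samples, with the 3 Sham libraries used for the spread and as an unclamped baseline. The animals were male Sprague-Dawley rats of 8 weeks, without any genetic change, 6 to a group, and which of the 6 rats gave each library is not stated in the sources used here. In both I-post C and IR rats the left lung was made ischemic for 30 min by clamping the pulmonary hilum and then had 2 h of blood flow. I-post C rats differed only in that the clamp was closed for 30 s and opened for 30 s in 3 rounds at the start of reflow, and in Sham rats the hilum was freed but not clamped. All 3 groups were ventilated under 20% urethane at 3 mL/kg and had 50 U/kg heparin, an anticoagulant, so coagulation genes were read in heparinized animals. The samples were pieces of whole lung, so in each result below fewer cells of a type and less RNA per cell cannot be told apart, and p-values measure only the spread between these libraries.

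Reperfusion of an ischemic lung brings oxygen back to endothelium that has stopped sensing flow, and the injury that follows is known for leaky capillaries, adhesion of leukocytes, activation of coagulation and release of chemokines by endothelium, epithelium and macrophages. Ischemic postconditioning interrupts the first moments of that reflow with short stops, and is studied in heart, lung and other organs as a way to limit the injury. Capillary endothelium, lymphocytes held in lung tissue, the elastic and basement membrane matrix and the oxidative metabolism of the tissue are places where a difference between I-post C and IR lungs can be looked for besides inflammation. The gene lists for them were chosen with earlier results of these data known.

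The IR 3 library stood apart from the other 5 libraries of the comparison, and the log2FC of genes and the medians of lists are therefore given with it and without it. The first principal component of log2 FPKM over the 6 libraries held 42.3% of the variance and placed IR 3 at 68.9. The summed level of 17 skeletal muscle genes was 42.4, 47.2 and 36.4 in I-post C libraries, against 49.2, 36.3 and 5342 in IR libraries, and IR 3 held 0.888% of its counts in that list, against 0.0111% to 0.0196% in the other 8 libraries. Within the 6 libraries of the comparison, 1 of the 17 genes (Cacng1) was at 0 in 1 library, I-post C 1. Mb, which encodes myoglobin, had 3.52, 3.11 and 1.87 FPKM in I-post C lungs, against 2.5, 2.63 and 916 FPKM in IR lungs. Mitochondrially encoded transcripts took 8.20% of the counts of IR 3 and 4.19% to 5.96% of the counts of the other 5. Total counts ran from 45110590 to 51214941 over the 9 libraries. Lung markers were abundant in all 6 libraries, with summed levels of 10 alveolar type 2 genes of 28328, 22591 and 26596 in I-post C libraries, against 24870, 29675 and 28046 in IR libraries.

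With a threshold of 0.05 on the adjusted p and of 1 on the absolute log2 fold change (log2FC), edgeR called 0 genes between I-post C and IR lungs, which is 0% of the 15402 genes, and the smallest adjusted p was 0.641. At an unadjusted p under 0.05, edgeR found 161 genes higher in I-post C lungs (1.05% of those tested) and 302 lower (1.96%). Under limma on log2(FPKM + 0.5), which takes the FPKM scale as deposited and moves the median of all genes by 0.11, that split was 311 higher and 111 lower. Without IR 3, edgeR's counts were 125 higher (0.812%) and 109 lower (0.708%), so the excess of lower genes was not seen in the other 5 libraries. Of the 302 lower genes, 117 had an IR 3 level over 3 times that of every other library of the 6, and 81 were also lower at an unadjusted p under 0.05 without IR 3. Of the 161 higher genes, 67 were also higher without it. DESeq2 on the 6 libraries called 38 genes, 18 higher (0.117%) and 20 lower (0.130%). Counts were also simulated for all 9 libraries, with a smaller spread than in these data and no threshold on log2FC. There DESeq2 made false calls more often than its nominal rate, whereas edgeR kept near its own. That setting differs from the fits on 6 and 5 libraries, so their own rate of false calls is not known. An adjusted p from DESeq2 is given below as an alternative, and no gene is taken as changed from it alone. The log2FC of single genes below comes from edgeR, with its standard error or the 95% interval of the same test, and every adjusted p from edgeR with all libraries was 0.641 or above.

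The leading genes of each direction are the 12 of smallest p among genes with a name, a log2FC of at least 1 in size, a mean of at least 1 FPKM in the higher group and no overlap between the 3 I-post C and the 3 IR libraries. Aplnr, the apelin receptor gene of capillary endothelium (chromosome 3, 72540538 to 72544182 of rn6), had the smallest p of all genes. It had 44.3, 38.9 and 44.6 FPKM in I-post C lungs, against 18.7, 15.6 and 12.2 FPKM in IR lungs. The rule for leading genes excluded any overlap, and for Aplnr the lowest I-post C library held over 2 times the level of the highest IR library. Sham lungs had 54.0, 30.7 and 38.0 FPKM, which spans the I-post C range. Its log2FC was 1.34 (standard error 0.19, 95% interval 0.92 to 1.76), and 1.26 without IR 3, and DESeq2 gave an adjusted p of 4.81e-11. Of the 12 leading genes higher in I-post C lungs, Gimap4, Gimap9, Klre1, Klri2 and Fcrl2 belong to the lymphoid lists used here and are described below. The others include Aplnr, Fam83d, Cbx2, which encodes a Polycomb protein, Mex3b, which encodes an RNA-binding protein, and Cyp4f5, a fatty acid hydroxylase gene. Nrm, which encodes a protein of the inner nuclear membrane, and Gfap, the intermediate filament gene of glia, are also among the 12. Nrm had 6.2, 8.61 and 8.92 FPKM in I-post C lungs, against 4.15, 3.32 and 2.87 FPKM in IR lungs, with a log2FC of 1.08 and 1.03 without IR 3, and its level in Sham lungs was 7.57, 8.04 and 12.6 FPKM. Gfap had 2.62, 4.88 and 3.81 FPKM in I-post C lungs, against 0.771, 0.576 and 0.708 FPKM in IR lungs, with 0.841, 0.469 and 0.0671 FPKM in Sham lungs, so I-post C lungs were above both other groups, with a log2FC of 2.31 and 2.42 without IR 3. Of 7 nerve and glia genes tested, 3 lay above 0 and 4 below, with a median of -0.21, and 0.19 without IR 3. S100b, another gene of that list, had a log2FC of -0.41 and -0.31 without IR 3.

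The 12 leading lower genes include inflammatory genes. Ptgs2, which encodes cyclooxygenase-2, had 3.17, 1.53 and 2.27 FPKM in I-post C lungs, against 6.05, 13.8 and 16.5 FPKM in IR lungs, with 1.51, 0.998 and 0.401 FPKM in Sham lungs. Its log2FC was -2.55 (standard error 0.54, 95% interval -3.77 to -1.34), and -2.16 without IR 3. Bcar3, which encodes an adaptor protein of integrin and growth factor signaling, had 25.0, 20.7 and 21.9 FPKM in I-post C lungs, against 34.5, 50.3 and 43.3 FPKM in IR lungs, and every IR library was above every other library of the series for it, with a log2FC of -1.07 and -0.98 without IR 3. Trim16, which encodes a tripartite motif protein, had 2.46, 1.4 and 2.43 FPKM in I-post C lungs, against 7.65, 5.94 and 6.62 FPKM in IR lungs, a log2FC of -1.81 (standard error 0.41, 95% interval -2.72 to -0.89) and -1.74 without IR 3, and an adjusted p from DESeq2 on the 6 libraries of 1.49e-06.

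**Figure D1:**
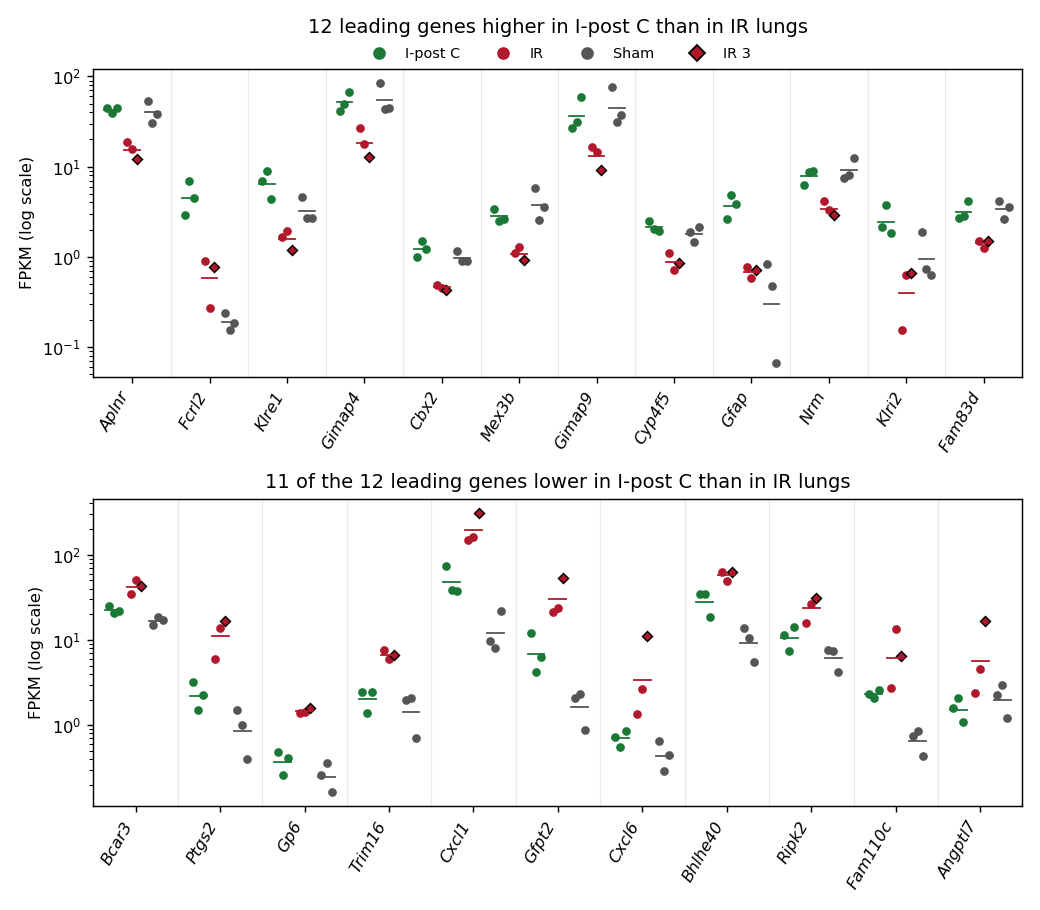
FPKM (log axis) of the 12 leading genes higher in I-post C than in IR lungs (top) and 11 of the 12 leading lower genes (bottom), ordered by unadjusted edgeR p, with 1 point per library, the IR 3 library as a diamond and short lines at the geometric mean of 3 libraries. Aplnr has 38.9 to 44.6 FPKM in I-post C libraries and 12.2 to 18.7 FPKM in IR libraries, and the diamond lies far above the other IR libraries for Cxcl6 and Angptl7.

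Cxcl1 and Cxcl6, which encode chemokines that draw neutrophils through CXCR2, are the 2 leading lower genes whose start region carries the same NF-kB type motif. Cxcl1 had 74.2, 39.0 and 37.2 FPKM in I-post C lungs, against 149, 161 and 309.6 FPKM in IR lungs, and Cxcl6 had 0.735, 0.558 and 0.865 FPKM in I-post C lungs, against 1.35, 2.64 and 11.2 FPKM in IR lungs. The log2FC of Cxcl1 was -2.22 with all libraries and -1.68 without IR 3, and that of Cxcl6 was -3.04 and -1.53. RefSeq promoters (build GRCr8) were at hand for 9 of the 12 leading higher and 8 of the 12 leading lower genes, and the 250 bases before each start were searched on both strands for GGAATTTCC, GGACTTTCC, the cAMP response element TGACGTCA and the AP-1 motif TGANTCA. GGAATTTCC stood in 2 of the 8 lower promoters and in 1 of the 9 higher ones (Fam83d), and in 0.288% of 27457 rat promoters. Cxcl1 and Cxcl6 are related genes on the same chromosome, so their matches are not independent and no excess is read from them. Only these exact letters were searched, so a promoter without a match may hold other forms of the motif. The AP-1 letters stood in 1 of the 8 and 1 of the 9 (Fam110c and Fam83d), against 6.36% of all promoters, and the other motifs in none. The 120 bases before each start are shown for the 2 chemokine genes with the GGAATTTCC letters in capitals, on the minus strand at chr14:17479322-17479441 (Cxcl1) and chr14:17596418-17596537 (Cxcl6), because the capitals lie 75 to 83 bases before the start in Cxcl1 and 79 to 87 bases in Cxcl6. These matches describe letters and were not measured as binding.
Cxcl1: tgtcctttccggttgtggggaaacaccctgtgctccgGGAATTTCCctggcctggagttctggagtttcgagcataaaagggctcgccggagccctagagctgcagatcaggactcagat
Cxcl6: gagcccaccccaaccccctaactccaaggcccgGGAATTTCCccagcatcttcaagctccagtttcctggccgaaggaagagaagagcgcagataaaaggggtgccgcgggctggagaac

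The lists of endothelial identity and capillary markers had medians close to that of all genes. A few receptor and signaling genes of endothelium had higher levels in every I-post C library than in any IR library. The genes named here and below were mostly taken for a small p within their lists. The share of all genes without overlap between the groups is not given here, so lack of overlap only describes the single gene. Of 28 endothelial identity genes tested, 16 had a log2FC above 0 and 12 below, with a median of 0.13, against -0.01 over all genes tested. At an unadjusted p under 0.05, 1 was higher and 2 were lower, against 1.05% and 1.96% of all genes. Without IR 3 the median was 0.08, and 2 were higher and 1 lower, against 0.812% and 0.708%. The summed level of the 29 genes of the list in the table was 1906, 2086 and 2202 in I-post C libraries, against 1855, 1951 and 1597 in IR libraries. Arhgef15, which encodes a guanine nucleotide exchange factor of endothelial cells, had 24.5, 24.9 and 29.5 FPKM in I-post C lungs, against 15.6, 12.4 and 8.59 FPKM in IR lungs, with 37.1, 19.8 and 23.3 FPKM in Sham lungs. Every I-post C library was above every IR library, and the log2FC was 1.0 (standard error 0.22, 95% interval 0.5 to 1.49), or 0.86 (standard error 0.24) without IR 3. Calcrl, which encodes the receptor that binds adrenomedullin and calcitonin gene-related peptide together with RAMP proteins, had 152, 187 and 161 FPKM in I-post C lungs, against 134, 88.5 and 77.7 FPKM in IR lungs. Its log2FC of 0.62 (95% interval 0.02 to 1.22) became 0.53 (standard error 0.31) without IR 3. Spns2, which encodes the exporter of sphingosine-1-phosphate from endothelium, had 26.3, 24.1 and 27.6 FPKM in I-post C lungs, against 21.1, 13.7 and 16.2 FPKM in IR lungs, with no overlap, a log2FC of 0.49 and 0.53 without IR 3. Emcn, which encodes the surface glycoprotein endomucin of capillaries and veins, had 103, 149 and 101 FPKM in I-post C lungs, against 72.7, 63.8 and 90.6 FPKM in IR lungs. Without IR 3 it had a log2FC of 0.73 (standard error 0.21), against 0.48 (95% interval -0.02 to 0.98) with all libraries.

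Vwf and Clec14a lay in the other direction. Vwf, which encodes von Willebrand factor, had 71.3, 63.1 and 70.2 FPKM in I-post C lungs, against 92.0, 90.4 and 72.6 FPKM in IR lungs, with 94.2, 86.8 and 101 FPKM in Sham lungs, so I-post C libraries were the lowest of the 3 groups, by a narrow margin below IR 3. Its log2FC was -0.44 (standard error 0.17, 95% interval -0.82 to -0.06), and -0.47 without IR 3. Clec14a, which encodes an endothelial C-type lectin, had 217, 199 and 194 FPKM in I-post C lungs, against 264, 253 and 211 FPKM in IR lungs, a log2FC of -0.38 and -0.41 without IR 3. Markers of general capillaries, Aplnr included, and of aerocytes, the large gas-exchange capillary cells, had medians near that of all genes, 0.06 over 13 and 0.07 over 10 genes, and 0.01 and 0.06 without IR 3. Kdr, the VEGF receptor 2 gene, had 60.6, 65.0 and 42.3 FPKM in I-post C lungs, against 56.1, 35.2 and 28.8 FPKM in IR lungs, which overlap, with a log2FC of 0.37 and 0.24 without IR 3.

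Genes of vessel tone and activation gave wide spreads. Of 17 vasomotor genes, 11 were above 0 in log2FC, the median being 0.15 and 0.1 without IR 3. Edn1, which encodes the vasoconstrictor endothelin-1, had 81.8, 112 and 76.7 FPKM in I-post C lungs, against 169.6, 118 and 52.6 FPKM in IR lungs, with 26.6, 24.7 and 16.5 FPKM in Sham lungs. IR 3 was the lowest of the 6, and the log2FC was -0.42 (95% interval -1.15 to 0.31) with all libraries and -0.73 (standard error 0.24) without it. Apold1, a stress-induced endothelial gene, had 72.7, 41.8 and 10.5 FPKM in I-post C lungs, against 134, 65.8 and 94.8 FPKM in IR lungs, with 1.69, 3.04 and 1.81 FPKM in Sham lungs, and I-post C 3 was the only clamped library near 10 FPKM. Its log2FC was -1.37, and -1.31 without IR 3. Of 10 activation and adhesion genes 6 lay below 0, with a median of -0.2 and -0.15 without IR 3. Selp, the gene of the adhesion receptor P-selectin, had 3.14, 3.37 and 7.41 FPKM in I-post C lungs, against 3.05, 7.4 and 18.4 FPKM in IR lungs, so that its log2FC of -1.25 rested on IR 3 and was -0.24 without it.

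Most coagulation, fibrinolysis and platelet genes had a log2FC below 0. Of 18 tested, 15 were below 0 in log2FC, the median being -0.7, and 6 were lower at an unadjusted p under 0.05, against 1.96% of all genes. Without IR 3 the median was -0.54 and 2 were lower at that p, against 0.708% of all genes. The median stayed below 0 under all 23 other settings, between -0.90 and -0.53. Gp6, which encodes the collagen receptor of platelets, had 0.484, 0.258 and 0.417 FPKM in I-post C lungs, against 1.39, 1.42 and 1.6 FPKM in IR lungs, with 0.26, 0.361 and 0.164 FPKM in Sham lungs. The IR libraries were close together and over 2 times every I-post C library, with a log2FC of -2.05 (standard error 0.45, 95% interval -3.06 to -1.05), and -1.9 without IR 3. Pf4, the platelet factor 4 gene, had 31.4, 22.9 and 39.6 FPKM in I-post C lungs, against 49.1, 44.5 and 62.5 FPKM in IR lungs, a log2FC of -0.88 and -0.63 without IR 3. Tfpi2, which encodes an inhibitor of serine proteases, had 4.23, 2.68 and 4.79 FPKM in I-post C lungs, against 5.07, 7.67 and 32.3 FPKM in IR lungs, and its log2FC of -2.17 was -0.77 without IR 3. Thbd, the thrombomodulin gene of endothelium and the most abundant gene of the list, had 214, 272 and 324 FPKM in I-post C lungs, against 219.6, 219 and 158 FPKM in IR lungs, and the groups overlapped, with a log2FC of 0.32 and 0.25 without IR 3. The summed level of 9 erythroid and platelet genes, mostly hemoglobins, was 20304, 15978 and 18360 in I-post C libraries, against 5766, 17550 and 21405 in IR libraries, lowest in IR 1, and its part in the platelet genes was not tested.

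**Figure D2:**
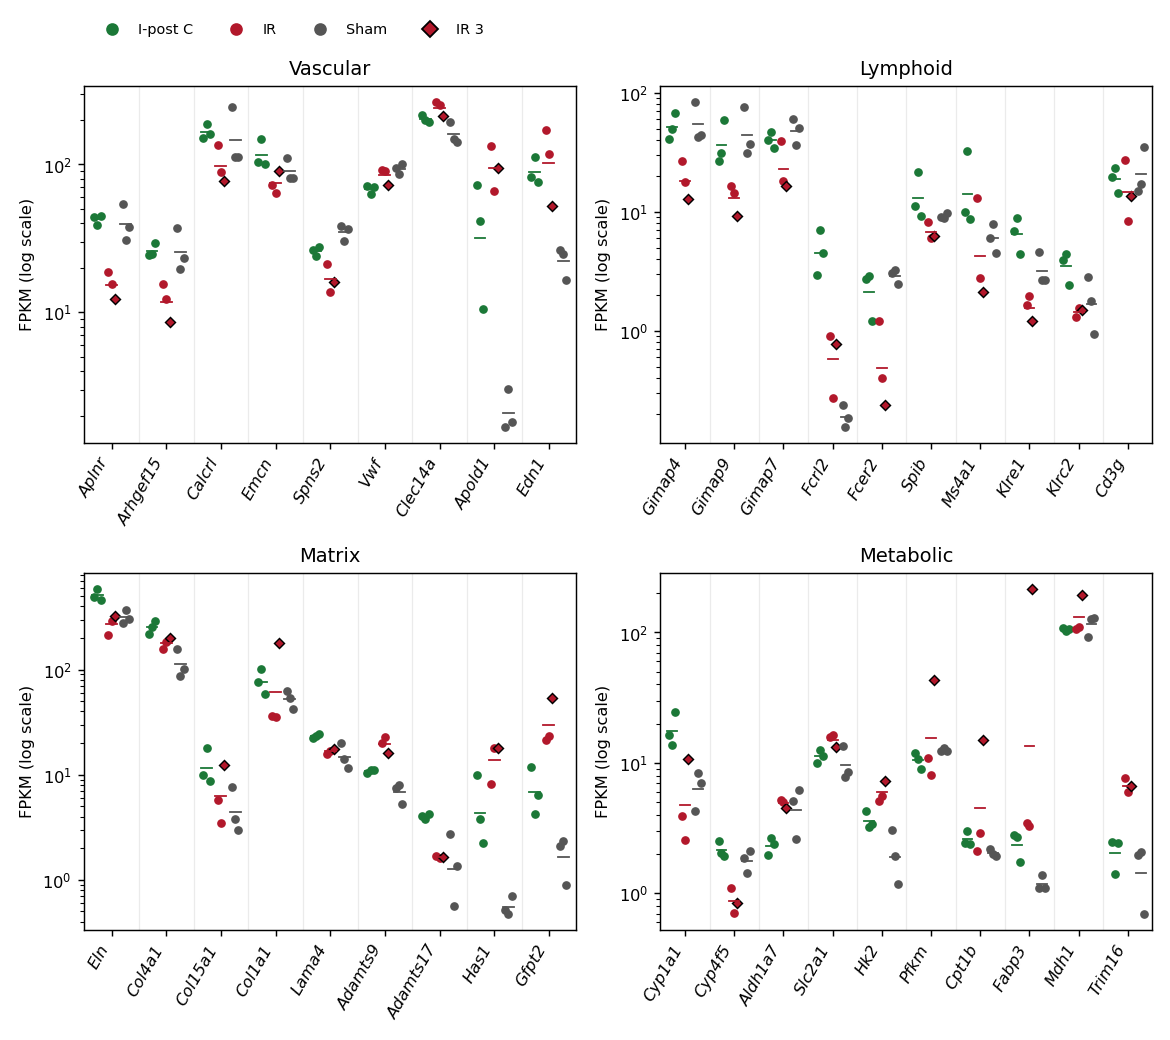
FPKM (log axis) in each library of vascular, lymphoid, matrix and metabolic genes, with I-post C, IR and Sham libraries from left to right for each gene, the IR 3 library as a diamond and short lines at the geometric mean of 3 libraries. Arhgef15, Gimap4, Eln and Cyp1a1 are higher in every I-post C library than in any IR library, while Fabp3, Pfkm, Cpt1b and Mdh1 are highest in IR 3.

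Several genes of the lymphoid lists had higher levels in I-post C lungs, and the families differed in how far IR 1 overlapped them. The GIMAP family encodes GTPases of lymphocytes, and some members are also made by endothelium. All 6 of its members tested were above 0 in log2FC, the median being 0.57, or 0.4 without IR 3. Gimap4 had 41.2, 49.7 and 67.9 FPKM in I-post C lungs, against 26.8, 17.7 and 12.7 FPKM in IR lungs, with 84.0, 43.0 and 44.4 FPKM in Sham lungs. Its log2FC was 1.37 (standard error 0.3, 95% interval 0.71 to 2.04), and 1.21 without IR 3, with adjusted p-values from DESeq2 of 0.00241 on 6 libraries and 0.0201 on the 5 without IR 3. Gimap9 had 26.6, 31.1 and 58.8 FPKM in I-post C lungs, against 16.6, 14.5 and 9.14 FPKM in IR lungs, with 75.5, 31.2 and 37.4 FPKM in Sham lungs, with a log2FC of 1.43 and 1.28 without IR 3. Its adjusted p from DESeq2 was 0.0157 on 6 libraries, 0.191 on all 9 and 0.112 on the 5 without IR 3. Gimap7 and Gimap6 had 40.4, 46.7 and 34.6 and 38.3, 33.1 and 46.0 FPKM in I-post C lungs, against 39.4, 18.3 and 16.4 and 35.8, 23.9 and 16.1 FPKM in IR lungs, and both overlapped through IR 1. Their log2FC was 0.61 and 0.53, or 0.45 and 0.35 without IR 3. The summed level of the GIMAP list was 190, 205 and 253 in I-post C libraries, against 160, 104 and 78.2 in IR libraries. It was highest in I-post C 3. That library had the lowest summed T cell, B cell and NK cell levels of the I-post C libraries, 125, 104 and 228. Which cells held the GIMAP transcripts was not tested. The members lie close together in the genome and share sequence, and the sources used here do not say how the counting split reads between near-identical genes, so single members are uncertain. That limit holds for the Klr genes and the CXC chemokines too.

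Of 21 B cell genes, 20 were above 0 in log2FC, the median being 0.89 and 0.66 without IR 3. At an unadjusted p under 0.05, 3 of the 21 were higher with and without IR 3, against 1.05% and 0.812% of all genes. Fcrl2, an Fc receptor-like gene whose human counterpart is active in B cells, had 2.94, 7.0 and 4.49 FPKM in I-post C lungs, against 0.902, 0.273 and 0.77 FPKM in IR lungs, with only 0.237, 0.156 and 0.185 FPKM in Sham lungs, so I-post C lungs were above both other groups. Its log2FC was 2.73 (standard error 0.53, 95% interval 1.55 to 3.92), and 2.98 without IR 3. Fcrl2 did not follow the B cell list in Sham libraries. The summed level of that list there was 146, 139 and 158, above IR 2 and IR 3, where Fcrl2 was higher than in Sham. Which cells held the Fcrl2 transcripts was not tested. Fcer2, which encodes the low-affinity IgE receptor CD23, had 2.72, 2.86 and 1.2 FPKM in I-post C lungs, against 1.2, 0.403 and 0.235 FPKM in IR lungs, with the lowest I-post C and the highest IR library near 1.20 FPKM, and a log2FC of 1.8 and 1.45 without IR 3. Spib, which encodes a transcription factor of the B cell lineage, had 11.1, 21.6 and 9.15 FPKM in I-post C lungs, against 8.27, 6.0 and 6.27 FPKM in IR lungs, a log2FC of 0.89 and 0.91 without IR 3. Ms4a1, which encodes CD20, had 9.98, 32.6 and 8.67 FPKM in I-post C lungs, against 13.1, 2.76 and 2.1 FPKM in IR lungs, and Ighm, the IgM heavy chain gene and the most abundant member, had 28.8, 59.8 and 23.9 FPKM in I-post C lungs, against 41.4, 18.3 and 14.1 FPKM in IR lungs, and both overlapped. The log2FC of Ms4a1 was 1.44 and 1.07 without IR 3, and that of Ighm 0.51 and 0.28. The summed level of the list was 175, 364 and 104 in I-post C libraries, against 200.2, 77.1 and 62.7 in IR libraries, with I-post C 2 the highest and IR 1 above 2 of the 3 I-post C libraries, and libraries of 1 group differed by over 3 times. None of the 21 was at 0 in any of the 6 libraries. Without I-post C 2 the median of the list was 0.22, and without IR 1 it was 1.38.

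Of 22 NK cell and cytotoxic genes, 15 lay above 0, with a median of 0.5 and 0.25 without IR 3, and 4 were higher at an unadjusted p under 0.05, all of them lectin-like receptors, against 1.05% of all genes. Without IR 3, 3 were higher at that p, against 0.812%. Klre1, a receptor gene of rodent NK cells, had 6.86, 8.91 and 4.39 FPKM in I-post C lungs, against 1.65, 1.94 and 1.2 FPKM in IR lungs, with 4.55, 2.66 and 2.66 FPKM in Sham lungs. Its log2FC was 1.93 (standard error 0.38, 95% interval 1.07 to 2.79), and 1.83 without IR 3. Klri2 had 2.16, 3.76 and 1.82 FPKM in I-post C lungs, against 0.154, 0.62 and 0.661 FPKM in IR lungs, and Klrc2 had 3.96, 4.43 and 2.44 FPKM in I-post C lungs, against 1.3, 1.55 and 1.5 FPKM in IR lungs, with a log2FC of 2.22 and 1.16, or 2.61 and 1.27 without IR 3. Klre1 and Klri2 are leading genes, which were chosen for having no overlap between the groups. Ccl5, the most abundant member and a chemokine gene of T and NK cells, had 103, 108 and 84.3 FPKM in I-post C lungs, against 179.7, 90.8 and 59.2 FPKM in IR lungs, which overlap, with a log2FC of -0.25 and -0.5 without IR 3. T cell genes were near the median of all genes, with 12 of 24 above 0 and a median of 0.04, or -0.0041 without IR 3. Cd3g, which encodes a chain of the T cell receptor complex, had 19.8, 23.2 and 14.5 FPKM in I-post C lungs, against 27.2, 8.43 and 13.6 FPKM in IR lungs, with a log2FC of 0.11 and 0.07 without IR 3. IR 1 held the highest summed levels of T cell and of NK cell genes of the 6, 329, 377 and 228 in I-post C libraries, against 467, 201 and 166 in IR libraries for the 24 NK cell genes in the table, so the groups overlapped in that sum.

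**Figure D3:**
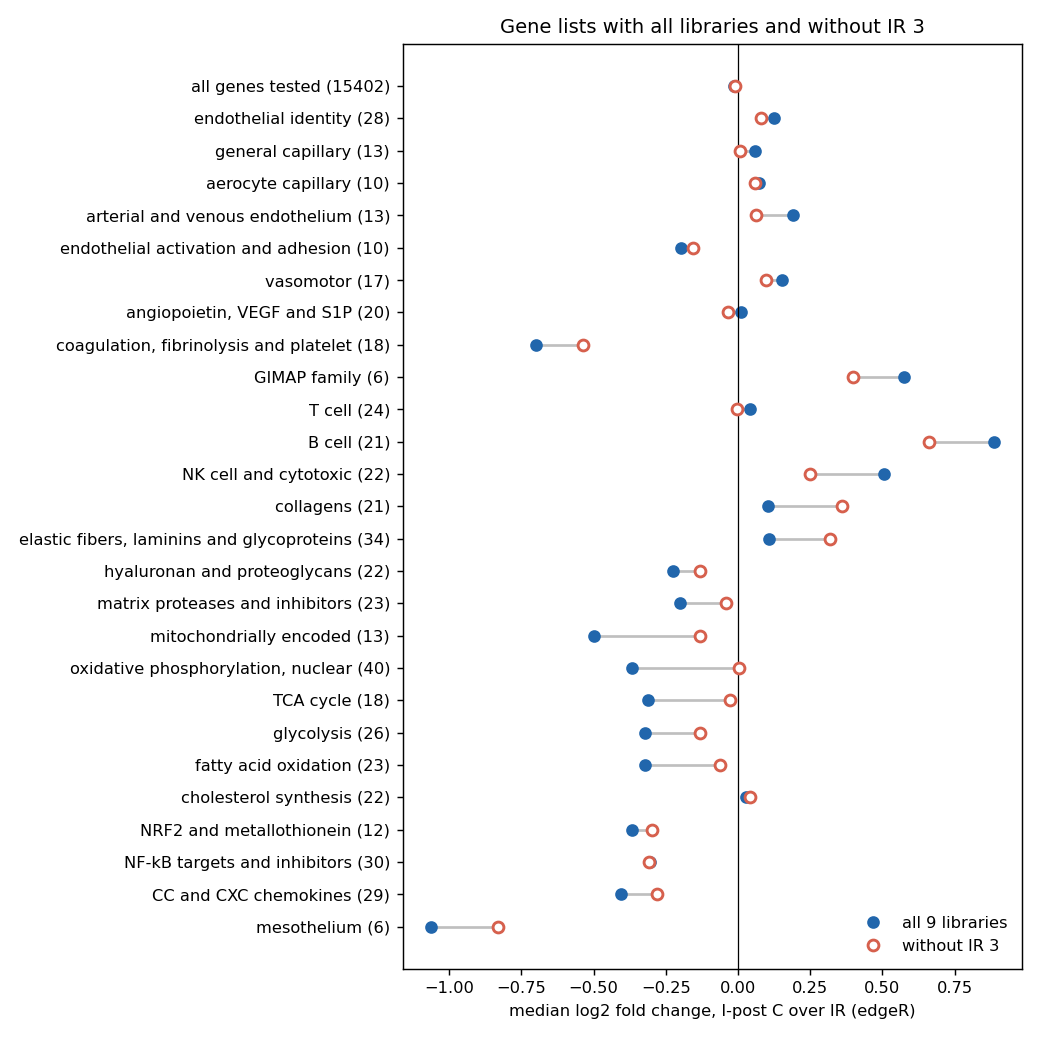
Median log2FC of I-post C over IR (edgeR) of 26 gene lists and of all genes tested, with all libraries (filled) and without IR 3 (open), and the number of genes tested in brackets. The lists of oxidative metabolism lie between -0.50 and -0.31 with all libraries and between -0.13 and 0.0021 without IR 3, while the GIMAP, B cell and NK cell lists stay above 0 and the coagulation list stays below 0 in both.

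Among matrix genes, structural proteins had medians above 0, more so without IR 3. Most genes of hyaluronan and proteoglycans had a log2FC below 0 with all libraries, and less clearly so without IR 3. Eln, the elastin gene, had 496, 587 and 461 FPKM in I-post C lungs, against 212, 291 and 321 FPKM in IR lungs, with 279, 371 and 303 FPKM in Sham lungs, so every I-post C library was above every library of the other groups. Its log2FC was 0.75 (standard error 0.26, 95% interval 0.15 to 1.34), and 0.97 (standard error 0.28) without IR 3. Of 34 genes of elastic fibers, laminins and glycoproteins, 20 lay above 0 with all libraries, with a median of 0.11, and 27 without IR 3, with a median of 0.32. Lama4, a laminin gene of vessel basement membranes, had 22.2, 23.4 and 24.2 FPKM in I-post C lungs, against 15.7, 16.9 and 17.5 FPKM in IR lungs, without overlap, and a log2FC of 0.34 (95% interval -0.06 to 0.74) and 0.46 without IR 3. Nid2, which encodes a nidogen that links laminin and collagen IV, had a log2FC of 0.44 (95% interval -0.18 to 1.05) and 0.75 (standard error 0.26) without IR 3.

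Of 21 collagen genes, 16 lay above 0 with a median of 0.1, and 18 with a median of 0.36 without IR 3. None passed an unadjusted p of 0.05 with all libraries. Col4a1, a collagen IV gene of basement membranes, had 216, 254 and 293 FPKM in I-post C lungs, against 157, 182 and 199.9 FPKM in IR lungs, with 157, 87.5 and 102 FPKM in Sham lungs. The groups did not overlap, and the log2FC was 0.35 (95% interval -0.18 to 0.89) and 0.53 (standard error 0.26) without IR 3. Col15a1, which encodes a basement membrane collagen, had 9.85, 17.9 and 8.79 FPKM in I-post C lungs, against 5.8, 3.46 and 12.3 FPKM in IR lungs, and its log2FC was 0.56 (95% interval -0.58 to 1.71) with all libraries and 1.34 (standard error 0.43) without IR 3. The fibrillar collagen gene Col1a1 had 75.6, 102 and 58.5 FPKM in I-post C lungs, against 36.5, 35.4 and 181 FPKM in IR lungs, and the most abundant member, Col3a1, had 560.0, 588 and 419 FPKM in I-post C lungs, against 291, 409 and 740.4 FPKM in IR lungs. IR 3 was the highest of the 6 libraries for both, and their log2FC changed sign with it, -0.33 against 1.07 without IR 3 for Col1a1 (standard error 0.25) and -0.07 against 0.51 for Col3a1. The summed levels of smooth muscle genes were 599, 622 and 529 in I-post C libraries, against 816, 423 and 1458 in IR libraries, so IR 3 was also high in that list, and the part of attached tissue in its collagen levels was not tested.

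Gfpt2 and Has2, genes of hyaluronan synthesis, were 2 of the 20 genes that DESeq2 called lower on the 6 libraries, with adjusted p-values of 0.00203 and 0.0464, which were 0.0424 and 0.482 on the 5 libraries without IR 3. On all 9 libraries DESeq2 gave 0.0222 and 0.304. Of 22 genes of hyaluronan and proteoglycans, 15 lay below 0 with all libraries, with a median of -0.23. Without IR 3, 10 of the 22 lay above 0, against 7493 of the 15402 genes tested, with a median of -0.13. At an unadjusted p under 0.05, 5 were lower, against 1.96% of all genes, and 2 without IR 3, against 0.708%. Gfpt2, which encodes the first enzyme of the hexosamine pathway, had 11.9, 4.22 and 6.39 FPKM in I-post C lungs, against 21.3, 23.5 and 53.2 FPKM in IR lungs, with 2.09, 2.33 and 0.89 FPKM in Sham lungs. Its log2FC was -2.3 (standard error 0.55, 95% interval -3.55 to -1.05), and -1.63 (standard error 0.49) without IR 3. Has1, a hyaluronan synthase gene, had 9.88, 3.75 and 2.23 FPKM in I-post C lungs, against 8.22, 17.9 and 18.0 FPKM in IR lungs, and I-post C 1 overlapped IR 1, with a log2FC of -1.64 and -1.38 without IR 3. Has2, the other synthase gene tested, had 0.383, 0.126 and 0.261 FPKM in I-post C lungs, against 0.386, 1.5 and 2.14 FPKM in IR lungs, with IR 1 just above I-post C 1, and a log2FC of -2.56 and -1.94 without IR 3. Adamts9 and Adamts17 encode secreted metalloproteases, and they differed in direction. Adamts9 had 10.5, 11.0 and 11.2 FPKM in I-post C lungs, against 19.9, 22.8 and 16.2 FPKM in IR lungs, a log2FC of -0.97 (standard error 0.18, 95% interval -1.39 to -0.56), and -1.03 without IR 3. Adamts17 had 4.04, 3.81 and 4.27 FPKM in I-post C lungs, against 1.67, 1.61 and 1.65 FPKM in IR lungs, with very little spread within either group. Sham lungs had 2.74, 0.559 and 1.34 FPKM, and edgeR, which pools the Sham spread, gave a log2FC of 1.16 (95% interval 0.17 to 2.14). DESeq2 gave Adamts17 an adjusted p of 2.45e-05 on the 6 libraries and 0.971 on all 9. Without IR 3 its log2FC was 1.24. Timp1, which encodes an inhibitor of metalloproteases, had 152, 89.2 and 299.9 FPKM in I-post C lungs, against 165, 639 and 615 FPKM in IR lungs, which overlap, with a log2FC of -1.55 and -1.22 without IR 3.

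The lists of energy metabolism had medians below 0 with all libraries and nearer to 0 without IR 3. With all libraries, 13 of 13 mitochondrially encoded genes, 36 of 40 nuclear genes of oxidative phosphorylation, 18 of 18 genes of the citric acid (TCA) cycle, 25 of 26 of glycolysis and 22 of 23 of fatty acid oxidation had a log2FC below 0, against 8071 of the 15402 genes tested. Their medians were -0.5, -0.37, -0.31, -0.32 and -0.32 in that order. Without IR 3 the medians were -0.13, 0.0021, -0.03, -0.13 and -0.06, in the same order. Above 0 then lay 0 of 13 mitochondrially encoded genes, 20 of 40 nuclear genes of oxidative phosphorylation, 5 of 18 TCA cycle genes, 4 of 26 of glycolysis and 8 of 23 of fatty acid oxidation, against 7493 of the 15402 genes tested, so outside the nuclear oxidative phosphorylation list most members still lay below 0. No gene of the mitochondrially encoded, nuclear oxidative phosphorylation or TCA lists passed an unadjusted p of 0.05 in either fit. Mdh1, the cytosolic malate dehydrogenase gene, had 108, 102 and 107 FPKM in I-post C lungs, against 106, 109.5 and 193 FPKM in IR lungs, so IR 1 and IR 2 lay within or next to the I-post C range, with a log2FC of -0.54 and -0.09 without IR 3. The muscle forms of enzymes show the same pattern. Pfkm, muscle phosphofructokinase, had 11.9, 10.8 and 8.95 FPKM in I-post C lungs, against 10.9, 8.1 and 43.2 FPKM in IR lungs, and its log2FC of -1.2 was 0.1 without IR 3. Cpt1b, muscle carnitine palmitoyltransferase, had 2.44, 3.02 and 2.37 FPKM in I-post C lungs, against 2.13, 2.89 and 15.1 FPKM in IR lungs, with -1.6 and -0.01. Fabp3, the fatty acid binding protein gene of heart and skeletal muscle, had 2.79, 2.71 and 1.75 FPKM in I-post C lungs, against 3.45, 3.26 and 216 FPKM in IR lungs, with -5.22 and -0.54. The muscle genes were at 36.3 to 5342 FPKM in sum over the IR libraries and 36.4 to 47.2 over the I-post C libraries.

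Other metabolic genes had values on the same side in both fits, though Hk2 did not pass the unadjusted p of 0.05 without IR 3. Slc2a1, which encodes the glucose transporter GLUT1, had 9.96, 12.5 and 11.3 FPKM in I-post C lungs, against 15.7, 16.2 and 13.2 FPKM in IR lungs, without overlap, a log2FC of -0.55 (standard error 0.19, 95% interval -0.98 to -0.12), and -0.56 (standard error 0.23) without IR 3. Hk2, which encodes hexokinase 2, had 4.25, 3.22 and 3.4 FPKM in I-post C lungs, against 5.11, 5.62 and 7.27 FPKM in IR lungs, with -0.88 (95% interval -1.6 to -0.17) and -0.62 (standard error 0.33). Cyp1a1, which encodes a cytochrome P450 induced through the aryl hydrocarbon receptor, had 16.5, 13.7 and 24.6 FPKM in I-post C lungs, against 3.91, 2.57 and 10.7 FPKM in IR lungs, with 4.25, 8.35 and 7.06 FPKM in Sham lungs. I-post C libraries were the highest of the series, and the log2FC was 1.48 (95% interval 0.17 to 2.78) with all libraries and 2.46 (standard error 0.46) without IR 3, where DESeq2 gave an adjusted p of 3.53e-09, against 0.32 with IR 3. Cyp4f5 had 2.5, 2.03 and 1.92 FPKM in I-post C lungs, against 1.1, 0.705 and 0.844 FPKM in IR lungs, and Aldh1a7, an aldehyde dehydrogenase gene, had 1.96, 2.67 and 2.4 FPKM in I-post C lungs, against 5.23, 4.97 and 4.55 FPKM in IR lungs, in opposite directions and both without overlap. For Cyp4f5, a leading gene, the rule required that. The log2FC of Cyp4f5 was 1.15 and 1.2 without IR 3, and that of Aldh1a7 -1.2 and -1.18. Of 22 cholesterol synthesis genes, 12 lay above 0, with a median of 0.03 and 0.04 without IR 3.

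Of 12 NRF2 targets and metallothioneins, genes of the oxidative stress response, 9 were below 0 in log2FC, the median being -0.37 and -0.3 without IR 3. Hmox1, the heme oxygenase 1 gene, had 27.9, 53.5 and 43.9 FPKM in I-post C lungs, against 75.4, 94.0 and 43.6 FPKM in IR lungs, a log2FC of -0.88 (95% interval -1.74 to -0.01) and -1.09 (standard error 0.4) without IR 3, and IR 3 lay within the I-post C range. Arg1, which encodes arginase 1, had 15.8, 9.25 and 7.99 FPKM in I-post C lungs, against 18.0, 20.5 and 16.6 FPKM in IR lungs, and Slc7a1, the cationic amino acid transporter gene, had 5.68, 5.03 and 4.8 FPKM in I-post C lungs, against 6.04, 8.91 and 7.38 FPKM in IR lungs, both without overlap. Their log2FC was -0.87 (95% interval -1.57 to -0.17) and -0.67 (95% interval -1.23 to -0.11), or -0.87 and -0.6 without IR 3.

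The lists of NF-kB targets and of chemokines had medians below 0 in both fits. Of 30 NF-kB targets and inhibitors, 25 lay below 0, with a median of -0.3 and -0.31 without IR 3. The NF-kB median moved by over 1.5 times with 3 other libraries, being -0.09 with I-post C 3 left out, -0.55 with I-post C 1 left out and -0.20 with IR 1 left out. Of 29 CC and CXC chemokines 23 lay below 0, with medians of -0.4 and -0.28. Il6, the interleukin-6 gene, had 16.8, 6.15 and 6.29 FPKM in I-post C lungs, against 15.2, 30.4 and 74.2 FPKM in IR lungs, with I-post C 1 above IR 1, and its log2FC was -2.24 and -1.3 without IR 3. The summed level of 19 neutrophil genes was 381, 368 and 1660 in I-post C libraries, against 726, 1404 and 774 in IR libraries, with I-post C 3 the highest of the 6. All 6 mesothelium genes tested, which mark the pleural surface, were below 0 in log2FC, the median being -1.06 and -0.83 without IR 3. The 7 mesothelium genes in the table, 1 of them below the FPKM minimum and not tested, summed to 418, 356 and 218 in I-post C libraries, against 395, 531 and 477 in IR libraries. Mesothelium also makes matrix and chemokines, and its part in those genes was not tested.

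**Figure D4:**
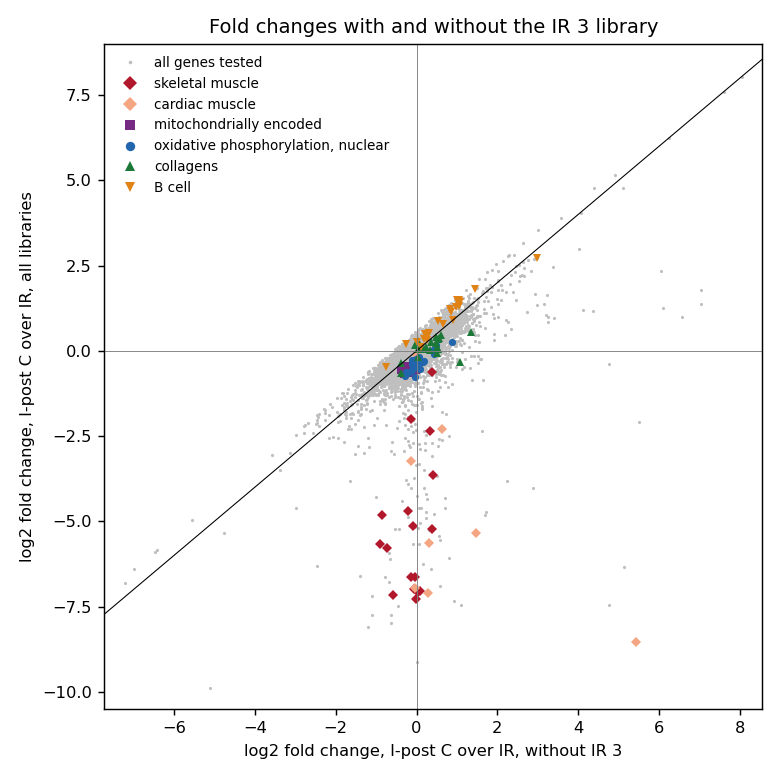
Log2FC of I-post C over IR of the 15402 genes tested (edgeR), with all libraries (vertical axis) and without IR 3 (horizontal axis), with 6 gene lists in color and a line where both are equal. Skeletal and cardiac muscle genes fall far below the line, with medians of -5.66 and -4.29 with all libraries and -0.07 and 0.20 without IR 3, while B cell genes lie along it.

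Leaving out IR 3 also brought up genes for which IR 3 was at the level of the I-post C libraries. DESeq2 on the 5 libraries called 54 genes, 38 higher and 16 lower, of which 24 were among its 38 calls on 6 libraries. For 11 of the 38 higher genes IR 3 was at or above the lowest I-post C library, and for 5 of the 16 lower genes at or below the highest. The only gene that edgeR called without IR 3 was AABR07044362.1, a locus without a gene name on chromosome 20, 3135791 to 3140610 of rn6, named here after its values were seen, as were the other genes of this paragraph. It had 27.2, 25.4 and 19.2 FPKM in I-post C lungs, against 1.29, 1.34 and 23.3 FPKM in IR lungs, with 2.18, 2.27 and 1.67 FPKM in Sham lungs, a log2FC of 4.11 (standard error 0.35) and an adjusted p of 0.0208 from edgeR without IR 3, against 1.2 (95% interval -1.02 to 3.41) with it. LOC103690108, on chromosome 20, 3791407 to 3794027, had 124, 112 and 106 FPKM in I-post C lungs, against 2.45, 0.794 and 114 FPKM in IR lungs, with 0, 2.98 and 0 FPKM in Sham lungs. Its 9 libraries fell into 4 above 100 FPKM, the 3 I-post C libraries and IR 3, and 5 below 3 FPKM. Moap1, which encodes a modulator of apoptosis, had 1.09, 3.82 and 4.11 FPKM in I-post C lungs, against 0.15, 0.125 and 3.08 FPKM in IR lungs, with 1.3, 0 and 0.377 FPKM in Sham lungs. For these 3 genes the split lay between IR 1 and IR 2 on one side and the I-post C libraries with IR 3 on the other.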

How the data were processed

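Paired reads of 150 bases came from whole lung RNA of rats, with 3 libraries each for I-post C, IR and Sham. Per the labels and the study's methods, poly(A) RNA was selected from samples with a RIN above 7, reads were trimmed with Cutadapt and mapped to rn6 with HISAT2, and transcripts were assembled and quantified with StringTie and ballgown (versions 1.9, 2.2.1 and 2.1.6 of Cutadapt, HISAT2 and StringTie in the submitters' notes). The study's methods name another version of StringTie. The authors deposited FPKM values, scaled for length and library size, and raw gene counts in whole numbers. The sources used here do not say how the counts were made or how multi-mapping reads were handled. Count totals exceed the mapped read pairs that the study gives, so no counting intervals were computed, and the spread between libraries (common biological coefficient of variation 0.406) sets the precision. TMM scaling (factor 0.893 for IR 3, the library with muscle RNA) adjusts the tests for differences in RNA composition, but not the FPKM printed.

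Counts of the 15402 genes were tested with edgeR 4.0.16 (quasi-likelihood F test, two-sided, TMM, group as the term, 9 libraries in 1 fit) and adjusted by Benjamini-Hochberg. Alternatives were DESeq2 1.42.0, limma 3.58.1 on log2(FPKM + 0.5) and with pseudocounts of 0.1 and 1, voom weights, RLE factors, other filters, a replicate block and each library left out, and the fits on 5 libraries were chosen after seeing the data. The scripts were tested on counts simulated from the means and sizes of all 9 libraries, in several draws pooled. Every gene was given the same spread, smaller than that of these data, and calls there used the adjusted p alone. There edgeR kept near its nominal rate of false calls, whereas DESeq2 made false calls more often than its own, so DESeq2's calls are given only as those of an alternative. The acceptance rule of that test was corrected, and 1 draw replaced by several, after a first version failed. Where entries share a symbol, the one of highest mean FPKM was used.

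The members, the 50 gene lists (925 genes) and the rule for naming genes were chosen with earlier results of these data known. Named are the genes called, the leading 12 of each direction, up to 4 of smallest p and the most abundant of each list, the genes the study names for this comparison, and muscle markers. Nid2, Col15a1, Col1a1, Scn3b, AABR07044362.1, LOC103690108 and Moap1 were added after their values were seen. A few genes that the rule names are not reported here.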

Additional observations from a re-analysis of the deposited data

How the results depend on the processing

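No gene was called between I-post C and IR lungs under 16 of 23 other settings (0 calls each), RLE scaling, other filters and limma on FPKM among them. DESeq2 called 38 genes on 6 libraries, 14 on all 9 and 54 on the 5 without IR 3, and voom with library weights called 1, Aplnr. Leaving out 1 library at a time gave 0 to 1 genes, the 1 being AABR07044362.1 without IR 3, and edgeR called 1 gene without IR 3 and Sham 3 together and 1 on 5 libraries. DESeq2 made more false calls than its nominal rate in counts simulated for 9 libraries with a smaller spread, and how far that accounts for its calls here was not tested. The replicate numbers did not pair the samples: deviations of same-numbered I-post C and IR libraries correlated at -0.06, -0.27 and -0.01, and with the replicate block edgeR called 0 genes, with 159 higher and 207 lower at an unadjusted p under 0.05. Of 71 single genes, 68 kept the sign of their log2FC under every setting. Col1a1, at -0.33 with all libraries, was at 1.07 without IR 3, 1.08 without IR 3 and Sham 3, 1.07 by DESeq2 and 1.08 by edgeR on 5 libraries, 0.31, 0.32 and 0.31 by limma with pseudocounts of 0.5, 0.1 and 1, 0.55 with library weights, 0.024 with the replicate block and -0.72 without IR 1. Col3a1, at -0.07, was at 0.51, 0.52, 0.51 and 0.52 under the same 4 settings that leave out IR 3, at 0.22 with each limma pseudocount, 0.19 with library weights and 0.054 without I-post C 3, and at -0.37 without IR 1. Pfkm, at -1.2, was at 0.10, 0.11, 0.10 and 0.11 under the 4 settings that leave out IR 3, and at -1.58 without IR 2. Of the list medians under other settings, 1061 stayed within the spread between replicates and 89 moved further. Without I-post C 3 the median of the neutrophil list was -1.26 in place of -0.19 and that of the NF-kB list -0.09 in place of -0.30. No setting varied depth or added libraries, so their part in the low number of calls was not tested.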

Other observations

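Some groups outside the vascular, lymphoid, matrix and metabolic genes also differed between the fits. Of 25 interferon-induced genes, 17 had a log2FC above 0 with all libraries, with a median of 0.17, and 23 without IR 3, with a median of 0.35. Of 16 genes of motile cilia, 8 lay above 0 with all libraries and 2 without IR 3, with medians of -0.03 and -0.35. Scn3b, which encodes a beta subunit of voltage-gated sodium channels, had 43.2, 68.0 and 65.8 FPKM in I-post C lungs, against 23.5, 18.0 and 25.1 FPKM in IR lungs, with 31.7, 13.0 and 7.04 FPKM in Sham lungs, and was 1 of the 18 genes that DESeq2 called higher on 6 libraries, chosen here after its values were seen. DESeq2 on all 9 libraries gave Scn3b an adjusted p of 0.677. AABR07044362.1, LOC103690108 and Nrm all lie on chromosome 20 of rn6, between 3135791 and 3794027, and a link between their positions and their levels was not tested. Their patterns differed: IR 3 was the lowest of the 6 libraries for Nrm, at 2.87 FPKM. For AABR07044362.1 and LOC103690108 it was at the level of the I-post C libraries, at 23.3 and 114 FPKM.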
